A study of Rattus norvegicus with 151 samples.

Results

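Fabp1, Fabp2, Fabp3 and Fabp7 (fatty acid binding proteins), Cidea, Plin2 and Plin5 (proteins of the lipid droplet surface) and Cd36 (a fatty acid receptor and transporter) were followed in liver and kidney of rats given MCHM, crude MCHM or PPH. They were 8 of 14218 named genes, carried by 9 of 20832 probe sets with 1 gene symbol. Probe sets were chosen by their mean intensity: where a gene had more than 1, the brightest over all arrays of the tissue was kept, which concerned Plin2 alone (mean in liver 11.64 for the probe set kept and 7.33 for the other). A further probe set, annotated to Cd36 together with another symbol, was brighter in liver than the Cd36 probe set used (7.59 against 6.65) and was not used, as it names more than 1 symbol. The 8 genes themselves were selected on their function with earlier results of these data, their changes with dose among them, known, so their changes are given as a description. The adjusted p-values beside them come from the fit over all genes and are no independent support.

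The rats were male Harlan Sprague-Dawley, 6 to 8 weeks old, and received 5 daily oral gavages of a chemical in corn oil or of corn oil alone. Doses of MCHM (4-methylcyclohexanemethanol) and of crude MCHM (the technical product) stepped from 0.1 mg/kg to 1, 10 and 100 mg/kg and then to 300 mg/kg and 500 mg/kg. Those of PPH (propylene glycol phenyl ether) were 1, 10, 100, 500 and 1000 mg/kg. Each chemical had its own vehicle group. Liver arrays numbered 5 for the MCHM vehicle, 4 for the crude MCHM vehicle, 5 for the PPH vehicle and 4 for each treated group except 3 at 0.1 mg/kg crude MCHM. Kidney arrays numbered 5, 3 and 5 for those vehicles; the treated groups of MCHM and PPH held 4, or 3 at 0.1 mg/kg MCHM and at 500 mg/kg PPH, and those of crude MCHM held 2 at 0.1 to 100 mg/kg and 3 at 300 and 500 mg/kg.

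Fatty acids are poorly soluble, and in the cytosol they are carried by small binding proteins of the FABP family, each best known from a different tissue. Excess fatty acid is stored as triglyceride in lipid droplets, whose surface is coated with perilipins and, in cells that enlarge their droplets, with CIDE proteins. In rodent liver, many of these genes are known targets of the fatty acid receptor PPAR-alpha, which binds DNA as a dimer with RXR.

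Of 151 arrays, 150 were used (81 of liver, 69 of kidney), and their medians lay between 5.22 and 5.38 log2 units. The values of 1 kidney array (0.1 mg/kg MCHM, replicate 13) were shifted against the probe set names: its median r with other kidneys was 0.401 as deposited and 0.952 after moving all values by 1 row, and it was left out. The mean of 10 hepatocyte markers was 13.23 in vehicle livers and 5.84 in vehicle kidneys, and that of the kidney tubule markers was 11.71 in kidney and 4.77 in liver. The titles number the animals, but p-values measure only the spread between these arrays. Beta-actin 5' and 3' probe sets, a sign of RNA integrity, and fat cell markers differed between some arrays, and their values are given beside the results they touch.

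In vehicle rats, which received corn oil, the genes divided between the tissues. All levels are RMA log2 intensities and are compared only within a gene. Fabp1, the liver-type protein, had 13.87 ± 0.06 (SD, n = 14) in vehicle livers and a median of 3.29 in the 13 vehicle kidneys. Fabp7, the brain-type protein, had 12.06 ± 0.15 in liver and 2.96 ± 0.25 in kidney. Fabp3, the heart-type protein, ran the other way, at 6.40 ± 0.19 in liver and 11.72 ± 0.13 in kidney. None of these ranges overlapped between the tissues.

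Plin2, the perilipin that coats droplets in most cells, was at 11.53 ± 0.22 in liver and 9.57 ± 0.21 in kidney. Cd36 was nearly level, at 6.57 ± 0.29 and 6.72 ± 0.32, and its ranges overlapped. Cidea, best known from brown fat, had 7.28 ± 0.58 in liver and 5.90 ± 0.53 in kidney, also with overlapping ranges. Fabp2, the intestinal-type protein, had 5.74 ± 0.48 in liver and 3.58 ± 0.23 in kidney. Plin5, the perilipin of oxidative tissues, had 5.39 ± 0.25 and 4.11 ± 0.25. Genes entered the tests when 3 or more arrays of a fit exceeded the 40th percentile of their tissue, which was 4.69 in liver and 4.66 in kidney. All 8 passed in liver. In kidney Fabp3, Cidea, Plin2 and Cd36 passed, while Fabp1, Fabp2, Fabp7 and Plin5 were above that level in 2, 0, 0 and 6 of 69 arrays and were not tested. Passing this filter is a matter of level and supports no change.

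**Figure D1:**
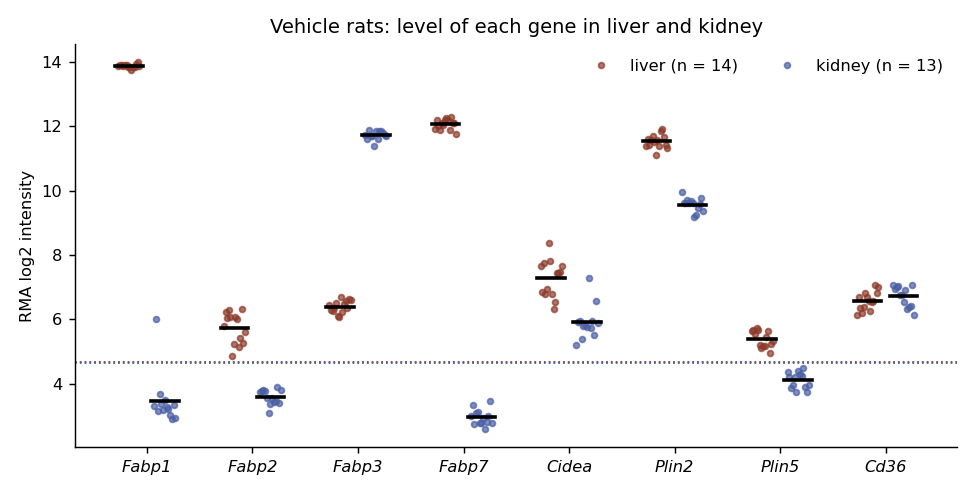
Vehicle rats only. The vertical axis is the RMA log2 intensity, points are single arrays (14 livers in red, 13 kidneys in blue), black bars are means, and the dotted lines mark the 40th percentiles of the tissues. Fabp1 and Fabp7 stand high in liver and below the line in kidney apart from 1 kidney with Fabp1 at 6.01, Fabp3 stands high in kidney, and Cd36 overlaps between the tissues.

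The upstream sequences of Fabp7, Cd36 and Fabp1 are shown because these genes fell, rose and did not pass the test in treated liver, in that order. Each is the 250 bases before the gene's start from RefSeq, build GRCr8, 5′ to 3′ on the gene's strand (chr20:37669356-37669605, chr4:18246332-18246581 and chr4:104749090-104749339, all on the plus strand). Capitals mark matches, on either strand, to the nuclear receptor half-site AGGTCA or, with up to 2 mismatches, to the PPAR-RXR repeat known as DR1, which is AGGTCA followed by any 1 base (N) and AGGTCA again and so contains the half-site.
Fabp7: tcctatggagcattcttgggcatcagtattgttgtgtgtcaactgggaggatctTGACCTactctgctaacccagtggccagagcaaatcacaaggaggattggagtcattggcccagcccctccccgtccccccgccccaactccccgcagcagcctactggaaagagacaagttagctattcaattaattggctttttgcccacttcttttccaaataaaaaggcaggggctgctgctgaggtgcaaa
Cd36: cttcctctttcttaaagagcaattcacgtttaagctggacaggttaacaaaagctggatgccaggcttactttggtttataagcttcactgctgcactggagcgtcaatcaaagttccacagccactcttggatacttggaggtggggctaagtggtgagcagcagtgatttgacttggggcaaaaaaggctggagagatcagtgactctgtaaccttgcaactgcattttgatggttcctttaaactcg
Fabp1: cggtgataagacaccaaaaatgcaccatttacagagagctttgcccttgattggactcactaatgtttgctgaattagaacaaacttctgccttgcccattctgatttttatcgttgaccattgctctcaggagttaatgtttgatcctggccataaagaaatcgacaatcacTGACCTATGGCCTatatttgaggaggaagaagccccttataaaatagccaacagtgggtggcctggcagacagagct
The Fabp1 window held 1 half-site as part of a repeat match with 1 mismatch, on the minus strand, beginning 77 bases before the start. The Fabp7 window held 1 half-site without a repeat match, beginning 196 bases before the start, and the Cd36 window held neither. All 8 genes had an entry in the table, Plin2 with 2 starts. Among the others, Fabp2 had a repeat match with 2 mismatches, Plin5 had 1 half-site, and Fabp3, Cidea and Plin2 had neither. Of 33469 such windows in the table, 14.1% held the half-site and 3.15% the repeat. These matches describe letters in a window and say nothing of binding.

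Across 17 treated liver groups, the 8 genes gave 136 comparisons with vehicle. Of these, 4 passed an adjusted p of 0.05 (limma, Benjamini-Hochberg over all genes tested at that dose), 2 upward and 2 downward. Over all genes tested, the share called at a single dose ran from 0% to 1.75%. An unadjusted p under 0.05 was found in 18 of the 136. Here and below, the share of all genes with such an unadjusted p was not counted, so these counts have no background. The 4 were Fabp7, lower at 300 and 500 mg/kg crude MCHM, and Cidea and Cd36, higher at 1000 mg/kg PPH. In 12 of the 136 the treated arrays lay wholly above or below their vehicle arrays, where 4.26% of such comparisons over all genes tested did. PPH gave 1 of them at 100 mg/kg and 2 at 1000 mg/kg, and MCHM none. The rest were with crude MCHM, whose groups all share 4 vehicle livers, so they are not separate events. In those groups 2.39% to 9.01% of all genes did not overlap vehicle. Fabp7 made 5 of the 12 and Plin2 3. In 72 the 95% interval of the change lay between -0.5 and 0.5 log2 units, which counts precision and not sameness. As livers were measured whole, fewer cells of a type and less RNA per cell cannot be told apart.

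Fabp7 fell with crude MCHM. Its 4 vehicle livers had 12.04, 12.18, 12.24 and 12.18. At 300 mg/kg the livers had 11.74, 11.85, 11.49 and 11.62, and at 500 mg/kg 11.32, 11.49, 11.50 and 11.46. Every liver of both groups lay below every vehicle liver. Of all genes tested, 9.01% at 300 mg/kg and 8.37% at 500 mg/kg lay wholly above or below vehicle.

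The change of Fabp7 at 300 mg/kg crude MCHM was -0.49 ± 0.09 log2 units (SE; 95% interval -0.67 to -0.30), or 1.40-fold lower (limma adjusted p = 0.0112). It was 1 of 8 genes called, where 1.01% of all genes tested were called and 0.132% were called lower. At 500 mg/kg the change was -0.72 ± 0.09 (-0.90 to -0.53), or 1.65-fold lower (limma adjusted p = 0.000115), again 1 of 8 against a background of 0.675%, and 0.158% called lower. The call at 500 mg/kg held in all 34 alternative fits, with adjusted p between 4.45e-05 and 0.00156. The call at 300 mg/kg was lost without the vehicle liver at 12.18 that had the lowest Plin2 (11.10; change -0.48, limma adjusted p = 0.0552) and with all chemicals in 1 fit (limma adjusted p = 0.0706).

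The lower doses of crude MCHM gave smaller changes of Fabp7 that did not pass. At 0.1 mg/kg the 3 livers had 12.02, 11.71 and 12.01, a change of -0.25 (limma adjusted p = 0.651). At 1 mg/kg the livers had 12.02, 11.76, 12.11 and 11.94, a change of -0.20, and they overlapped the vehicle range. At 10 mg/kg they had 11.84, 11.92, 12.01 and 11.72, a change of -0.29, and at 100 mg/kg 11.86, 11.69, 11.80 and 11.79, a change of -0.37 (limma adjusted p = 0.241). The groups at 0.1, 10 and 100 mg/kg also lay wholly below vehicle, where 7.16%, 3.6% and 3.66% of all genes did not overlap vehicle. No gene at all was called at these 4 doses, a background of 0%. Over all 27 livers of the set, Fabp7 fell by 0.10 log2 units per dose step (vehicle as the step before the lowest dose; limma adjusted p = 0.000123). It was the only one of the 8 genes called on this trend, where 1.91% of genes were called.

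With MCHM itself, Fabp7 was lower at the top dose without passing the dose test. The vehicle livers had 11.92, 12.20, 11.996, 11.87 and 12.10, and the livers at 500 mg/kg had 11.31, 11.51, 12.01 and 11.09. Of the 4 treated livers 3 lay below all vehicle livers, and replicate 42, at 12.01, lay among them. The change was -0.54 ± 0.13 (SE; -0.81 to -0.26), or 1.45-fold lower, with limma adjusted p = 0.0613. None of the 8 genes was called at this dose, where 0.512% of genes were (0.0265% at 300 mg/kg and 0% below that), and 2 (Fabp7 and Cidea) had an unadjusted p under 0.05. Without replicate 42 the change was -0.71 (limma adjusted p = 0.0137), and without replicate 35 of the 300 mg/kg group the adjusted p was 0.0367.

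At 300 mg/kg MCHM the livers had Fabp7 at 11.77, 12.25, 11.53 and 11.83, a change of -0.17 that did not pass. From 0.1 to 100 mg/kg the group means were 12.22, 12.11, 12.26 and 12.04, all above the vehicle mean of 12.02. On the trend over all 29 livers Fabp7 fell by 0.087 log2 units per dose step (95% interval -0.12 to -0.05; limma adjusted p = 0.0108). It was again 1 of 8 genes, with 2.38% of genes called.

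PPH did not give a called change of Fabp7. The vehicle livers had 11.88, 12.28, 12.11, 12.10 and 11.77, and those at 1000 mg/kg 11.69, 12.09, 12.19 and 11.59, which overlapped. The change was -0.14 (95% interval -0.45 to 0.17). At 1, 10, 100 and 500 mg/kg it was -0.21, -0.21, -0.09 and -0.27, with none called. Of all genes, 0%, 0.00882%, 0% and 0.0882% were called at those doses.

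**Figure D2:**
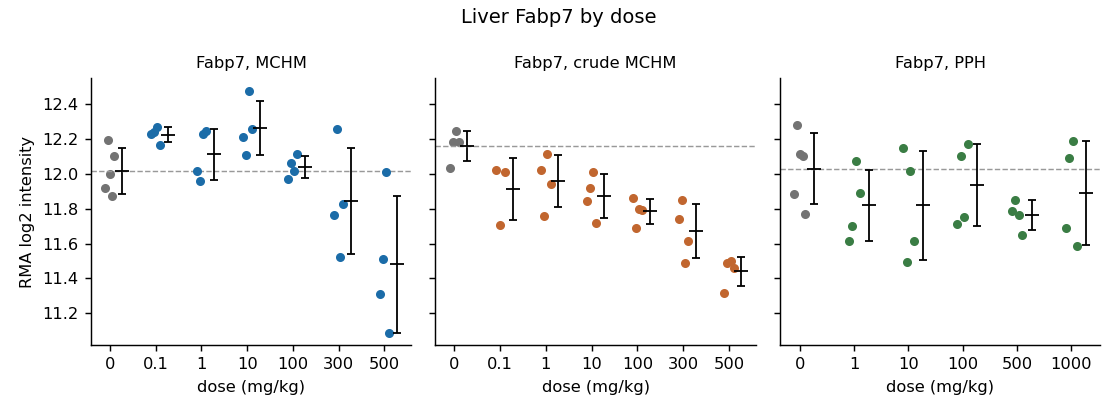
Fabp7 in liver. The horizontal axis gives the dose in mg/kg (equal spacing, not to scale) and the vertical axis the RMA log2 intensity, with 1 panel per chemical; grey points are vehicle livers, coloured points treated livers, and the bar beside each group its mean with SD, with a dashed line at the vehicle mean. Crude MCHM means pass from 12.16 in vehicle to 11.44 at 500 mg/kg, MCHM at 500 mg/kg has 1 liver at 12.01 and 3 from 11.09 to 11.51, and PPH groups overlap vehicle.

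The mean of the hepatocyte markers was 13.09 to 13.23 in crude MCHM vehicle livers and 12.98 to 13.27 at 500 mg/kg, which overlapped. With MCHM the corresponding ranges were 13.10 to 13.22 and 13.22 to 13.34. Among these markers Tat was called higher at 500 mg/kg MCHM (1.39, limma adjusted p = 0.0298). Apoa1 was called lower at 500 mg/kg crude MCHM (-0.31, limma adjusted p = 0.0318). The mean can thus hide or reflect changes of single markers. Macrophage markers had lower values at the same doses. At 500 mg/kg MCHM none of the 11 tested was called (limma), but 8 were lower at an unadjusted p under 0.05, with a list median of -0.26 against 0.01 over all genes, and 2 of the 11 were called lower on the MCHM dose trend. At 500 mg/kg crude MCHM 4 of the 11 were lower at an unadjusted p under 0.05 and none was called, with a median of -0.18. The mean of these markers was 8.78 to 8.99 in MCHM vehicle livers and 8.49 to 8.92 at 500 mg/kg, and 8.58 to 9.08 and 8.603 to 8.712 with crude MCHM, so both pairs of ranges overlapped. Their part in the Fabp7 values was not tested. The beta-actin 5' minus 3' difference was -1.29 to -1.19 in crude MCHM vehicle livers and -1.26 to -1.14 at 500 mg/kg, and -2.10 to -1.76 and -2.20 to -1.86 with MCHM.

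Fabp1 did not pass in any group. Over all 81 livers it ranged only from 13.72 to 14.02, and its 17 changes lay between -0.09 and 0.09. The widest interval reached 0.11 to either side. The probe set is near the top of the array's scale, and whether it could have shown a rise there was not tested. Fabp2, which is dim in liver, changed by -0.40 to 0.55 with intervals up to 0.68 to either side, and none passed.

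Fabp3 was lower in PPH-treated livers without passing. Its vehicle livers had 6.36 to 6.65 with a median of 6.56, and those at 1000 mg/kg 5.91 to 6.43. Those at 100 mg/kg had 6.10 to 6.35, all below vehicle, where 3.77% of all genes did not overlap vehicle. The changes were -0.29 at 1 mg/kg, -0.32 at 100 mg/kg and -0.35 at 1000 mg/kg, with limma adjusted p of 0.318, 0.267 and 0.0677. At 10 and 500 mg/kg the livers had 6.38 to 6.52 and 6.17 to 6.54, both overlapping vehicle, so Fabp3 did not fall steadily with dose. Fabp3 passed at 1000 mg/kg when the lowest vehicle liver (6.36) was left out (-0.39, limma adjusted p = 0.0495) or the highest liver of the dose group (6.43) was (-0.43, limma adjusted p = 0.0486). With MCHM and crude MCHM its changes lay between -0.15 and 0.16.

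Cidea and Cd36 rose at the highest dose of PPH. Cidea promotes droplet growth and Cd36 brings fatty acids into the cell. The vehicle livers had Cidea at 6.52, 7.43, 7.45, 7.48 and 7.67, and those at 1000 mg/kg had 8.51, 8.09, 8.69 and 8.81. All 4 treated livers lay above all 5 vehicle livers, where 6.04% of all genes did not overlap vehicle.

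The change of Cidea was 1.21 ± 0.29 log2 units (SE; 95% interval 0.61 to 1.82), or 2.32-fold higher (limma adjusted p = 0.0315). At 1, 10, 100 and 500 mg/kg PPH its changes were 0.45, 0.25, 0.42 and 0.17, none called, and all 4 of those groups overlapped vehicle. The call at 1000 mg/kg was lost in 5 of the fits with 1 array left out: without the vehicle liver at 6.52 (1.02, limma adjusted p = 0.0919) or that at 7.43 (0.0507), or without the dose group's livers at 8.51 (0.0659), 8.69 (0.116) or 8.81 (0.0996).

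Cd36 had 6.53, 6.55, 7.06, 6.81 and 6.99 in the vehicle livers and 7.33, 7.26, 7.49 and 7.67 at 1000 mg/kg, again without overlap. The share of all genes without overlap at this dose was the 6.04% given for Cidea. The change was 0.65 ± 0.15 (SE; 0.33 to 0.97), or 1.57-fold higher (limma adjusted p = 0.0295). With Cidea it made 2 of 8 genes called, where 1.75% of all genes were called and 1.22% were called higher. Its changes at 1, 10, 100 and 500 mg/kg were 0.25, -0.14, 0.16 and -0.04. The call at 1000 mg/kg was lost without the vehicle livers at 6.53 (0.58, limma adjusted p = 0.0857), 6.55 (0.0735) or 6.81 (0.0519), or without the dose group's livers at 7.49 (0.103) or 7.67 (0.107). On the dose trend Cidea and Cd36 did not pass (limma adjusted p = 0.144 and 0.179), nor did any other of the 8 genes, with 1.32% of genes called and Fabp3 the third with an unadjusted p under 0.05.

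Both calls at 1000 mg/kg were also lost with the beta-actin 5' minus 3' difference as a covariate (Cidea 1.07, limma adjusted p = 0.0642; Cd36 0.61, 0.0612). That difference ranged from -1.27 to -1.11 in the vehicle livers and from -1.20 to -1.07 at 1000 mg/kg. The 8 measured of 10 white fat cell markers had mean levels of 6.13 to 6.54 in vehicle and 6.10 to 6.59 at 1000 mg/kg. Of these markers Thrsp, Cidec and Cfd exceeded the 40th percentile in all 81 livers. The others did so in fewer, Lep in 1 and Plin1 in 9, so this mean says little of fat cells in liver. Ucp1, which defines brown fat, had 4.43 to 5.21 and 4.58 to 4.71, and Adipoq, made by fat cells, stayed at or below 4.29 in all 81 livers, under the 40th percentile. Of the 11 macrophage markers 4 were lower and 1 higher at an unadjusted p under 0.05 at 1000 mg/kg PPH, none called (limma), with a median of -0.20, and their part in the result was not tested.

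The brighter probe set annotated to Cd36 and another symbol lay at 7.33 to 7.83 in the PPH vehicle livers and at 8.00 to 8.35 at 1000 mg/kg. Its change was 0.55 (95% interval 0.24 to 0.86) and did not pass (limma adjusted p = 0.0558, read in place of the Cd36 probe set used), so the call of Cd36 was not met by this probe set, although its arrays did not overlap either.

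**Figure D3:**
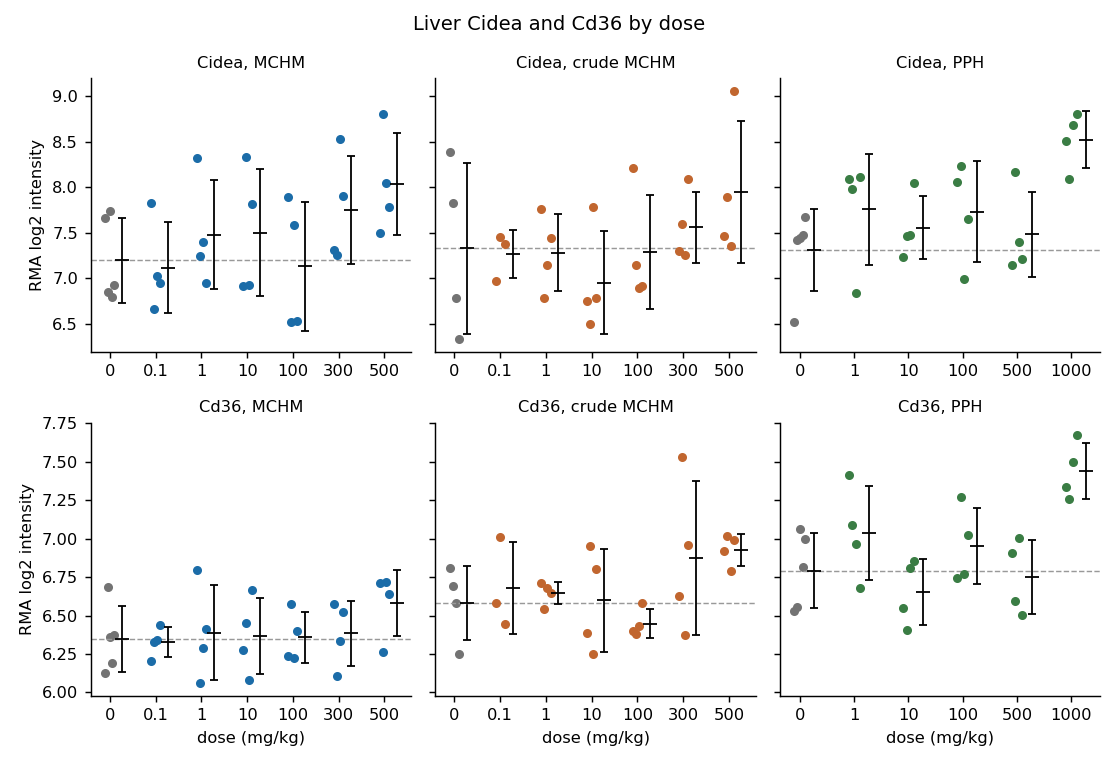
Cidea (upper row) and Cd36 (lower row) in liver, 1 column per chemical. Axes, points and bars are as dose in mg/kg (equal spacing), RMA log2 intensity, single livers (grey for vehicle) and group mean with SD. At 1000 mg/kg PPH all 4 livers lie above the 5 vehicle livers for both genes, while Cidea varies from 6.33 to 8.38 within the crude MCHM vehicle group alone.

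With MCHM, Cidea was 8.04 ± 0.56 at 500 mg/kg against 7.20 ± 0.47 in vehicle, a change of 0.84 (95% interval 0.08 to 1.59) that did not pass (limma adjusted p = 0.308). With crude MCHM its change at 500 mg/kg was 0.61 (-0.22 to 1.45), from vehicle livers at 8.38, 7.83, 6.78 and 6.33. Cd36 changed by 0.23 (-0.05 to 0.52) at 500 mg/kg MCHM and by 0.35 (-0.03 to 0.72) at 500 mg/kg crude MCHM. Both Cidea intervals include the size of its change at 1000 mg/kg PPH.

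Plin2 was higher in crude MCHM livers without passing. Its vehicle livers had 11.50, 11.10, 11.56 and 11.37. At 100, 300 and 500 mg/kg the lowest livers had 11.59, 11.75 and 11.59, so all 3 groups lay wholly above vehicle. Of all genes, 3.66%, 9.01% and 8.37% did not overlap vehicle at those doses. The changes were 0.42, 0.53 and 0.41 with limma adjusted p of 0.522, 0.105 and 0.247, and the trend had an adjusted p of 0.0967. With MCHM its change at 500 mg/kg was 0.23, and with 1000 mg/kg PPH -0.30. The second Plin2 probe set, dimmer and not used, changed by 0.06, 0.00 and -0.22 at those 3 doses of crude MCHM, so the higher values of the brighter one were not seen there. At 500 mg/kg MCHM it changed by -0.36, opposite in direction to the brighter one. At 1000 mg/kg PPH it changed by -0.40, in the same direction.

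Plin5, which ties droplets to mitochondria, changed by -0.27 to 0.38 over the 17 groups, none called. Its vehicle mean was 5.65 ± 0.07 in the MCHM set and 5.16 ± 0.03 in the crude MCHM set. That difference between vehicle groups, -0.48, had a limma adjusted p of 0.0377, where 11.4% of genes differed. Cd36 differed likewise between the PPH and MCHM vehicle groups, by 0.44 (limma adjusted p = 0.0329), where 17.4% of genes differed. Between the PPH and crude MCHM vehicle groups none of the 8 passed and Fabp3 alone had an unadjusted p under 0.05, where 2.55% of genes differed. The MCHM set also lay apart in the beta-actin 5' minus 3' difference, as its vehicle livers had -2.10 to -1.76, those of the crude MCHM set -1.29 to -1.19 and those of the PPH set -1.27 to -1.11, and its part in these differences was not tested. Levels of a gene are therefore read only against the vehicle group of the same set.

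**Figure D4:**
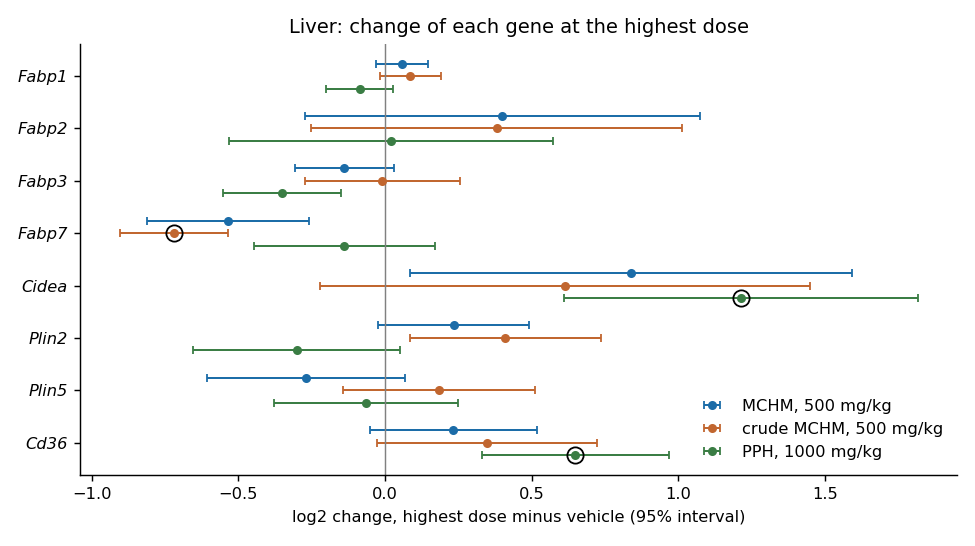
Change of each of the 8 genes in liver at the highest dose of each chemical. The horizontal axis is the log2 change from vehicle, points are limma estimates, whiskers 95% intervals, and black rings mark an adjusted p under 0.05. Fabp7 with crude MCHM (-0.72) and Cidea and Cd36 with PPH (1.21 and 0.65) are ringed, and the Fabp1 intervals are the narrowest.

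Other genes of the same pathways, from lists drawn up with earlier results known, were called in small numbers. At 500 mg/kg crude MCHM in liver, 1 of 15 tested lipid droplet genes passed (Plin3, a perilipin, 0.42 higher), 1 of 11 lipolysis genes (Mgll, monoglyceride lipase, 0.57 higher) and 1 of 10 triglyceride synthesis genes (Agpat3, an acyltransferase, lower at -0.40). Of 17 other uptake, binding and activation genes none passed, and 3 had an unadjusted p under 0.05. The list medians were 0.11, 0.10, 0.09 and 0.07, and the median of all genes was 0.01. Of 19 PPAR-alpha targets outside the 8 genes, 2 rose: Ehhadh, of peroxisomal beta-oxidation (0.74), and Cyp4a1, a fatty acid hydroxylase (0.79), with a list median of 0.08.

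At 500 mg/kg MCHM in liver the same 2 PPAR-alpha targets rose, Ehhadh by 0.64 and Cyp4a1 by 0.69, while 4 others of the 19 were lower at an unadjusted p under 0.05 without being called. Of 16 uptake, binding and activation genes Dbi, the acyl-CoA binding protein, rose by 0.23. The list medians were -0.01 and 0.00, and that of all genes was 0.01. None of 15 droplet, 10 synthesis or 11 lipolysis genes passed (medians 0.06, 0.03 and -0.05), with 6, 1 and 1 at an unadjusted p under 0.05.

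At 1000 mg/kg PPH in liver, Hsd17b11, a droplet-associated dehydrogenase, rose by 0.30 (1 of 14 droplet genes), Slc27a5, a bile acid and fatty acid CoA ligase, rose by 0.42 (1 of 16), and Lipc, hepatic lipase, fell by 0.27 (1 of 11). None of 10 synthesis genes passed, with 4 at an unadjusted p under 0.05, and none of 19 PPAR-alpha targets, also with 4. The list medians for droplet, uptake, lipolysis, synthesis and PPAR-alpha genes were 0.08, -0.02, 0.05, 0.10 and -0.02, and that of all genes was 0.03.

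The genes most like the called ones were ranked by Pearson r of their differences from their own vehicle mean over 67 treated livers, among 11623 genes. These livers share vehicle groups and chemical sets, so the values are descriptive. For Fabp7 they were Apoa1, the main protein of HDL (r = 0.72), Abcb4, the phospholipid transporter of bile (0.71), and Serpina7, thyroxine-binding globulin (0.70). At 500 mg/kg crude MCHM Apoa1 fell by 0.31 and Serpina7 fell by 1.46 (limma adjusted p = 0.0318 and 0.00336), and Abcb4 was at -0.42 (0.0771). Apoa1 also fell by 0.28 at 1000 mg/kg PPH (limma adjusted p = 0.0417), where Fabp7 was not called, and was at -0.30 at 500 mg/kg MCHM (0.0568).

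For Cidea the closest genes were Tcea3 (r = 0.58), Enpp3 (0.57) and Txn1, thioredoxin (0.56), and at 1000 mg/kg PPH Enpp3 rose by 0.50 (limma adjusted p = 0.0259). For Cd36 they were Sult2a6, a sulfotransferase (0.62), Gsta3, a glutathione transferase (0.61), and Sccpdh (0.60). At 1000 mg/kg PPH Sult2a6 rose by 1.50 and Gsta3 by 2.65 (limma adjusted p = 0.0427 and 8.74e-05). Cidea and Cd36, both higher with PPH, had r = 0.37 with each other. Fabp7 had r between -0.26 and 0.06 with the other 7 genes.

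Between chemicals, responses were compared only at matched doses: MCHM with crude MCHM at 300 and 500 mg/kg, and PPH with each at 500 mg/kg. None of the 8 genes differed in liver in 32 tests (limma adjusted over all genes; 1, of Fabp7, had an unadjusted p under 0.05), where 0%, 0%, 0.0344% and 0% of genes differed. For Fabp7 at 500 mg/kg the MCHM change minus the crude MCHM change was 0.18 (95% interval -0.19 to 0.56; limma adjusted p = 0.997, and 0.332 adjusted over the 4 pairs). At 300 mg/kg it was 0.31 (-0.06 to 0.69). The fall of Fabp7 with crude MCHM was thus not shown to differ from its change with MCHM, and the intervals do not show the chemicals to act alike. The MCHM livers lie apart from those of the other sets in the beta-actin 5' minus 3' difference, as given above for vehicle, and its part in these comparisons was not tested.

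The PPH change of Fabp7 minus the crude MCHM change at 500 mg/kg was 0.45 (95% interval 0.08 to 0.83), with unadjusted p = 0.0181, limma adjusted p = 0.566 and 0.0723 adjusted over the 4 pairs. Against MCHM it was 0.27 (-0.09 to 0.63). For Cidea the PPH minus MCHM difference at 500 mg/kg was -0.66 (-1.71 to 0.38), a wide interval. The 1000 mg/kg dose of PPH, at which Cidea and Cd36 rose, had no matched dose of the other chemicals and is not compared. In kidney none of 5 tested genes differed in 20 tests either, and none had an unadjusted p under 0.05. Over all genes 0%, 0.0261%, 0% and 0.0956% differed. Plin5 passed the filter in this larger fit through 6 of 69 kidneys, all among the 11 with Ucp1 above 7 described below. In the other 58 kidneys it reached 4.56, under the filter of 4.66, so its tests say little of those.

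In kidney none of 68 comparisons of Fabp3, Cidea, Plin2 and Cd36 with vehicle passed (limma), and 2 had an unadjusted p under 0.05: Fabp3 and Cd36 at 1 mg/kg crude MCHM, a group of 2 arrays. Those 2 kidneys had Fabp3 at 11.84 and 12.12 and Cd36 at 7.28 and 8.04. The second of them had Ucp1 at 11.47, Adipoq at 7.99 and Cidea at 10.04, and the first had albumin at 11.06, both far from most kidneys. With the white fat cell marker mean as a covariate, the count of genes called by dose in the crude MCHM kidneys stayed 0. The part of the albumin value in the result was not tested. In 5 comparisons treated and vehicle values did not overlap, against 7.49% of comparisons over all kidney genes. All 5 were among the 16 comparisons with crude MCHM groups of 2 arrays, where 18.4% of comparisons over all genes did not overlap. The beta-actin 5' minus 3' difference was -1.31 to -1.26 in MCHM vehicle kidneys, -2.82 to -2.17 in those of crude MCHM and -3.07 to -2.34 in those of PPH. At the highest doses it was -1.33 to -1.16, -2.16 to -1.92 and -2.54 to -2.37, which lay wholly above vehicle for crude MCHM alone. With this difference as a covariate, the count of genes called by dose stayed 0 in each kidney set. Its part in the kidney values was not tested beyond that count. The share of all kidney genes called was 2.03% at 1000 mg/kg PPH, 0.0177% at 500 mg/kg MCHM and 0% at the other 15 doses. At 1000 mg/kg PPH Plin2 had the smallest adjusted p of the 4, 0.342. Fabp3, bright in kidney, changed by -0.21 to 0.36 over the 17 groups, and Plin2 by -0.20 to 0.20. On the kidney dose trends none of the 4 passed, where 0.124% (MCHM), 0% (crude MCHM) and 1.58% (PPH) of genes did, and 1, Cidea with MCHM, had an unadjusted p under 0.05 (0.33 per dose step; limma adjusted p = 0.518), which includes the pair of kidneys described next.

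The large kidney values of Cidea rested on single kidneys. With MCHM the vehicle kidneys had 5.19, 5.92, 5.95, 5.38 and 5.80. At 300 mg/kg they had 5.67, 5.47, 12.75 and 6.06, and at 500 mg/kg 5.90, 6.19, 12.06 and 5.71. In each treated group 1 kidney (replicates 36 and 42) stood far above the others, which lay near or among the vehicle values.

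Cd36 showed the same pair of kidneys, at 10.89 and 9.61, where the other 6 kidneys of those groups had 6.39 to 7.26. The group changes at 300 and 500 mg/kg were 1.84 and 1.82 for Cidea and 0.97 and 0.70 for Cd36, with limma adjusted p from 0.653 to 0.897. Without replicates 36 and 42, the pair highest in white fat cell markers in this set, they were 0.08 and 0.29 for Cidea and -0.02 and 0.05 for Cd36. With all kidneys kept and the white fat cell marker mean as a covariate they were 0.59 and 0.91 for Cidea (95% interval at 500 mg/kg 0.07 to 1.75) and 0.33 and 0.23 for Cd36, with none called (limma adjusted p from 0.549 to 0.999). Ucp1 was at 13.80 and 12.40 in those kidneys. The mean of 8 measured of 10 white fat cell markers was 9.26 and 8.34 there, while the vehicle kidneys ranged from 4.87 to 6.07, the 300 mg/kg group from 4.88 and the 500 mg/kg group from 4.82. The mean of 7 measured of 8 brown fat cell markers was 5.11 to 5.16 in vehicle and reached 7.57 at 300 mg/kg and 7.21 at 500 mg/kg.

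Over all 69 kidneys, Cidea divided with Ucp1 more fully than the other genes did. A Ucp1 level of 7, chosen after its values were seen, left 58 kidneys at 4.27 to 6.90 and 11, spread over 10 groups, at 7.34 to 13.80. Cidea was 4.85 to 6.58 in the 58 and 6.53 to 12.75 in the 11, of which 10 exceeded every other kidney. For Plin5, Cd36, Fabp3 and Plin2 the number of the 11 above every other kidney was 6, 5, 4 and 2, and for Fabp1 it was 0. Medians of Cidea were 8.74 in the 11 and 5.72 in the 58, and those of Plin2 were 9.53 and 9.62. Adipoq reached 10.03 in the 11 and 7.04 in the 58. Within the 58 the 3 kidneys highest in Adipoq (6.67 to 7.04) had Cidea at 6.41 to 6.58 and Ucp1 at 6.05 to 6.90. Vehicle kidneys with Adipoq at 6.17 (MCHM) and 6.40 (crude MCHM) had Ucp1 at 4.79 and 4.50 and Cidea at 5.19 and 5.77. Whether fat tissue was taken with these kidneys was not tested.

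**Figure D5:**
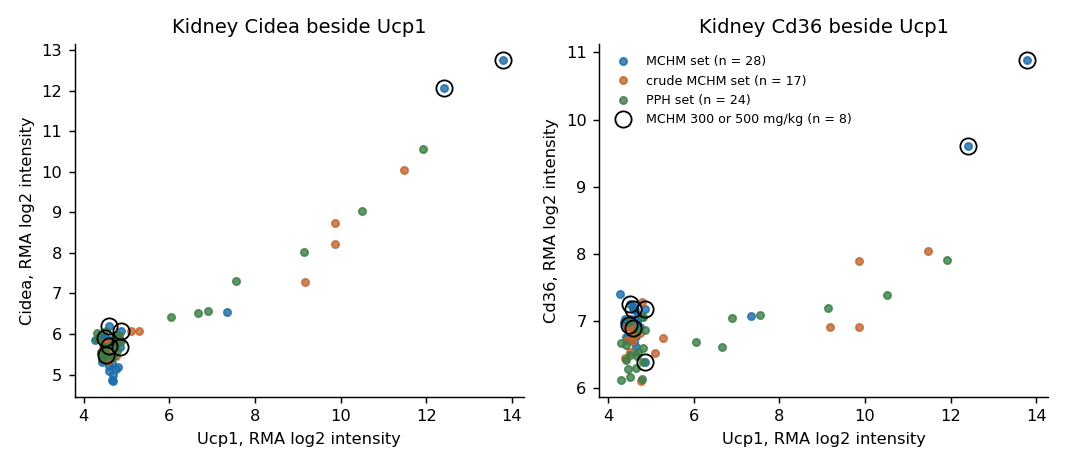
Each point is 1 of 69 kidneys; the horizontal axis is Ucp1 and the vertical axis Cidea (left) or Cd36 (right), both RMA log2 intensities, coloured by chemical set including its vehicle, with rings around the 8 kidneys at 300 or 500 mg/kg MCHM. Of the ringed kidneys 2 lie at the far upper right (Cidea 12.75 and 12.06) and the other 6 lie with the bulk.

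Fabp1 in kidney was at 6.01 in replicate 4 of the MCHM vehicle group and 7.75 in 1 of the pair at 1 mg/kg crude MCHM, and at 3.87 or below in the other 67 kidneys. Albumin (Alb) was at 10.19 and 11.06 in those same kidneys against a median of 4.62 and a highest value of 7.28 in the rest, and transthyretin (Ttr) at 8.44 and 9.32. Whether liver RNA was present in them was not tested.

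In kidney at 1000 mg/kg PPH other genes of fatty acid handling passed although the 4 tested did not. Of 19 PPAR-alpha targets 3 rose: Ehhadh by 0.71, Cyp4a3 by 0.40 and Acadm, medium-chain acyl-CoA dehydrogenase, by 0.28. Mogat2, of monoacylglycerol acylation, rose by 0.60 (1 of 10 synthesis genes), Acsl3 and Slc27a2, which activate fatty acids, rose by 0.39 and 0.24 (2 of 16), and Hsd17b11 rose by 0.34 (1 of 14 droplet genes). None of 10 lipolysis genes passed, with 3 at an unadjusted p under 0.05. The medians of these 5 lists were 0.10, -0.02, 0.05, 0.03 and 0.03, against -0.03 over all genes. In kidney no gene of these lists passed (limma) at 500 mg/kg MCHM or crude MCHM, with 8 of 70 and 6 of 68 at an unadjusted p under 0.05.

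The liver change minus the kidney change at the highest dose did not pass for any of the 8 genes in 24 tests (1, of Fabp7, had an unadjusted p under 0.05), where 0.0759% (MCHM), 0.0587% (crude MCHM) and 0.748% (PPH) of genes did. Fabp1, Fabp2, Fabp7 and Plin5 entered this fit through their liver values. They were above the kidney filter in 2, 0, 0 and 6 of 69 kidneys, so their tests cannot show how kidney responded. For Fabp7 with crude MCHM it was -0.81 (95% interval -1.39 to -0.24; limma adjusted p = 0.195), with kidney values below the filter throughout. For Cidea and Cd36 with PPH it was 1.37 (-0.34 to 3.07) and 0.48 (-0.16 to 1.13), so their rise was not shown to be limited to liver.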

How the data were processed

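Expression was measured on Affymetrix rat arrays from biotin-labelled total RNA, 1 array per tissue sample. The deposited values are log2 intensities made with RMA, per the submitters' processing notes; the software, and whether tissues were processed together, are not given in the sources used here, and array number alone sets the precision. The array annotation named 21268 of 31099 probe sets, 20832 with 1 symbol, 436 with several (not used, among them a brighter Cd36 probe set) and 9831 unnamed here. The brightest probe set per gene and tissue was kept. Each dose was set against its own vehicle group in limma 3.58.1 (R 4.3.3, data.table version 1.17.8; lmFit and eBayes, two-sided), 1 fit per tissue and chemical, with Benjamini-Hochberg adjustment over all genes above the 40th percentile in at least 3 arrays, and a call at 0.05. Trends used the rank of the dose. The scripts were tested on simulated data.

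Members and lists were chosen with earlier results of these data known. Named are all 8 genes, with values per array for those called, list genes called at a highest dose (up to 4 per list by adjusted p), and the 3 genes most like each called one. Liver and kidney arrays sharing an animal number made 65 pairs, whose deviations from group means correlated at -0.12 to 0.23 (median 0.11, 37 over 0.1). Arrays of different animals were not compared in this way, so these values cannot decide whether the numbers pair. As no method text states a block, the number was used as one only as an alternative. No 2 arrays had identical values (highest r 0.996). Alternatives were the filter, the probe set rule, a second quantile normalization, array weights, the groups in the fit, marker covariates, each array left out in turn, the shifted array included, and the block.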

Additional observations from a re-analysis of the deposited data

Results flagged for a closer look

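In 10 of 196 combinations of a gene and a group of 4 or 5 arrays, 1 array stood apart from the rest by Dixon's criterion. Chance alone does this in about 1 combination in 20, and the combinations share arrays, so they are not independent. In liver, Fabp1 was 13.93 in replicate 28 at 100 mg/kg MCHM, where the others had 13.85 to 13.86, and 13.89 in replicate 37 at 300 mg/kg MCHM, where the others had 13.92 to 13.93. A single liver at 1 mg/kg PPH was the lowest of its group both for Fabp1 (13.72, others 13.88 to 13.91) and for Cidea (6.85, others 7.98 to 8.11). Fabp2 was 4.71 in replicate 27 at 100 mg/kg MCHM, where the others had 6.51 to 6.62. Cidea was 6.52 in 1 PPH vehicle liver, where the others had 7.43 to 7.67.

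In kidney, Cidea was 12.75 in replicate 36 at 300 mg/kg MCHM and 12.06 in replicate 42 at 500 mg/kg MCHM, and Cd36 was 9.61 in replicate 42, where the others had 6.89 to 7.18. Fabp3 was 11.91 in 1 kidney at 1000 mg/kg PPH, where the others had 11.60 to 11.63.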

How the results depend on the processing

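The counts of the 8 genes called depended on the setting in liver. With MCHM the count over doses was 0 and became 1 (Fabp7 at 500 mg/kg) with array weights and 1 with all chemicals in 1 fit; leaving out each array in turn gave 0 to 1. With crude MCHM it was 2 and became 1 with all chemicals in 1 fit, and 1 to 2 with each array left out. With PPH it was 2 and became 0 with the beta-actin difference as a covariate, which was chosen after seeing the data, 3 with a second quantile normalization (Fabp3 at 1000 mg/kg added), and 0 to 3 with each array left out; without the 1000 mg/kg liver with Fabp3 at 6.43 the 1 gene called was Fabp3. The cause was not tested. With all chemicals in 1 fit Cidea at 1000 mg/kg PPH had a limma adjusted p of 0.0531. The Fabp7 trends kept their calls in all fits run, with adjusted p up to 0.0316 (MCHM) and 0.0346 (crude MCHM), and no direction of these called values turned. The counts of 0 in kidney, between chemicals and between tissues stayed 0 in every fit run.

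With the animal number as a replicate block, 0 of the 8 genes differed between tissues for each chemical, the count without it, while the counts over all genes went from 9 to 17, from 7 to 48 and from 89 to 152 (consensus correlations 0.086, 0.058 and 0.090). For Fabp1, Fabp2, Fabp7 and Plin5, dim in kidney, that count says nothing of a kidney response. That the numbers pair the tissues of 1 rat is not stated in the labels. Using each other probe set of a called gene gave no value, as no called gene had another with 1 symbol; the probe set of 2 symbols, tried for Cd36 after seeing the data, gave 0.55 (limma adjusted p = 0.0558). Groups of 2 to 5 arrays limit all intervals, and dim genes (Fabp2, Plin5) and the very bright Fabp1 probe set can show less change than occurred.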
